A study of Drosophila melanogaster with 6 samples.

Results

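CG32762, CG4151, CG42717 and CG42713 are protein-coding genes of Drosophila melanogaster that the annotation knows by a CG number alone, with no name for a function. They are 4 of the 16196 genes in the count tables, and were chosen by measured values. Their RNA stood high in C3 and C4 larvae, as did that of most genes of the Eig71E cluster, though not of Eig71Ee. All values that compare C3 or C4 with the control are therefore a description of that choice and carry no test. Whole larvae were profiled at the 3rd instar, on day 4 after egg laying, by sequencing of total RNA depleted of ribosomal RNA. There were 6 libraries, 1 per genotype. The control carried Tublin Gal4/S-T, a stock with a driver that is active in most tissues (what S-T denotes is not stated). The other 5 libraries had the genotypes Tublin Gal4; UAS-C1, UAS-C2, UAS-C3, UAS-C4 and UAS-C5, and each misexpressed a single-copy gene of the newt Notophthalmus viridescens from a pUAST-attB insertion made with phiC31 integrase. The control thus shared the Gal4 driver with the other genotypes. The sources used here do not give the number of larvae in a library, their sex or their exact age within the instar, and the newt transcripts were not analysed here.

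The Eig71E genes are a tight cluster on chromosome arm 3L that the steroid hormone ecdysone induces in salivary glands at the end of larval life. In the same glands the glue genes, Sgs and ng, make the secretion that later fixes the puparium, and they are active before the late genes. Ecdysone acts through the receptor EcR/Usp, which turns on early transcription factors such as br, Eip74EF and Eip75B, and these in turn act on late genes. In bulk RNA from whole larvae, fewer cells of a type and less RNA per cell cannot be told apart.

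The libraries held 75131812 to 86975388 counts. With 1 library for each genotype no difference has a replicate check or a p-value, every difference compares libraries and not conditions, and every interval covers counting error only. Levels are counts per 1000000 counts (CPM) after TMM scaling. A call of higher or lower needed a fold of 2 or more and a 95% interval of the ratio without 1, where the interval was the exact binomial one of Clopper and Pearson. Fewer than 3 counts were set to a floor of 3 counts per library for a fold, which lay between 0.0304 and 0.0449 CPM. Marker lists of 7 larval tissues were read in every library. The testis list summed to 1068 CPM in the control library and 2267 CPM in that of C4, but to between 2.51 and 8.63 CPM in the other 4 libraries, with dj, a sperm tail gene, at 0 counts in C1, C2 and C3. Summed fat body RNA ranged from 51814 CPM in C4 to 146894 CPM in C5, muscle RNA from 834 CPM in C3 to 11858 CPM in C2, and cuticle RNA from 393 CPM in C3 to 34671 CPM in C2. The midgut list ranged from 78.7 CPM in the control to 538 CPM in C1, the haemocyte list from 41.0 CPM in C3 to 351 CPM in C2, and the Malpighian tubule list from 62.4 CPM in the control to 223 CPM in C2.

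The 4 genes lie at 3 places in the genome (build dm6). CG32762 (X, 5500208 to 5501229, minus strand) and CG4151 (X, 5501476 to 5502782, plus strand) are neighbours. They are transcribed away from each other, with 246 bases between the gene ends and 616 bases between the starts of their main transcripts. CG42717 (3L, 16032762 to 16033190, minus strand) lies on the same arm as the Eig71E cluster (15649126 to 15661809), 371 kb beyond its end. CG42713 (2L, 8891440 to 8892180, plus strand) lies on another chromosome. None of the 4 overlapped another annotated gene.

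Their coding regions are short. CG32762 has 200 codons in 3 exons, CG4151 182 codons in 1 exon, CG42717 96 codons in 2 exons and CG42713 92 codons in 2 exons, not counting the stop. The median over the 11272 protein-coding genes that averaged 1 CPM or more was 434 codons, taking the longest coding region of each. Of those genes 17.8% had at most 200 codons and 4.08% had at most 100.

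CG32762 stood at 0.206 CPM in the control (19 counts), 1.47 in C1 (122 counts), 0.0599 in C2 (4 counts), 932 in C3 (70818 counts), 439 in C4 (43279 counts) and 0.0533 in C5 (4 counts). C3 and C4 were thus high and the other libraries low, with C1 above the control, and C2 and C5 below it and near the floor. The fold over the control was 4519 in C3 (log2 interval 11.50 to 12.87) and 2127 in C4 (10.41 to 11.79). Within the order C3, C4, C1, control, C2, C5, the last 2 did not differ beyond counting error (log2 ratio of C2 to C5 0.17, interval -2.26 to 2.59).

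CG4151, its neighbour, stood at 0.402 CPM in the control (37 counts), 4.01 in C1 (333 counts), 1.38 in C2 (92 counts), 1273 in C3 (96691 counts), 476 in C4 (46909 counts) and 0.387 in C5 (29 counts). The same 2 libraries were high, and here C1 and C2 both stood above the control. The fold over the control was 3168 in C3 (log2 interval 11.17 to 12.14) and 1184 in C4 (9.75 to 10.72). The control and C5 at the low end did not differ beyond counting error (log2 ratio of C5 to control -0.06, interval -0.81 to 0.68).

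CG42717 had 0 counts in the control, and stood at 2.12 CPM in C1 (176 counts), 1.09 in C2 (73 counts), 643 in C3 (48813 counts), 138 in C4 (13574 counts) and 2.37 in C5 (178 counts). It was the only one of the 4 with no count in the control, and it was read in all 5 transgenic libraries. Against the floor of 3 counts it was 19727-fold higher in C3 (lower log2 limit 13.97) and 4225-fold higher in C4 (11.75). With 0 counts in the control these intervals have no upper limit. C1 and C5, next to each other in the order, did not differ beyond counting error (log2 ratio of C1 to C5 -0.16, interval -0.47 to 0.15).

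CG42713 stood at 0.152 CPM in the control (14 counts), 1.01 in C1 (84 counts), 10.3 in C2 (687 counts), 44.3 in C3 (3364 counts), 223 in C4 (21968 counts) and 0.213 in C5 (16 counts). Unlike in each of the other 3 genes, C4 was highest and C2 stood above C1. On a log scale C2 lay nearer to C3 than to C1. The fold over the control was 291 in C3 (log2 interval 7.44 to 9.06) and 1465 in C4 (9.77 to 11.39). The control and C5 did not differ beyond counting error (log2 ratio of C5 to control 0.49, interval -0.64 to 1.63).

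**Figure D1:**
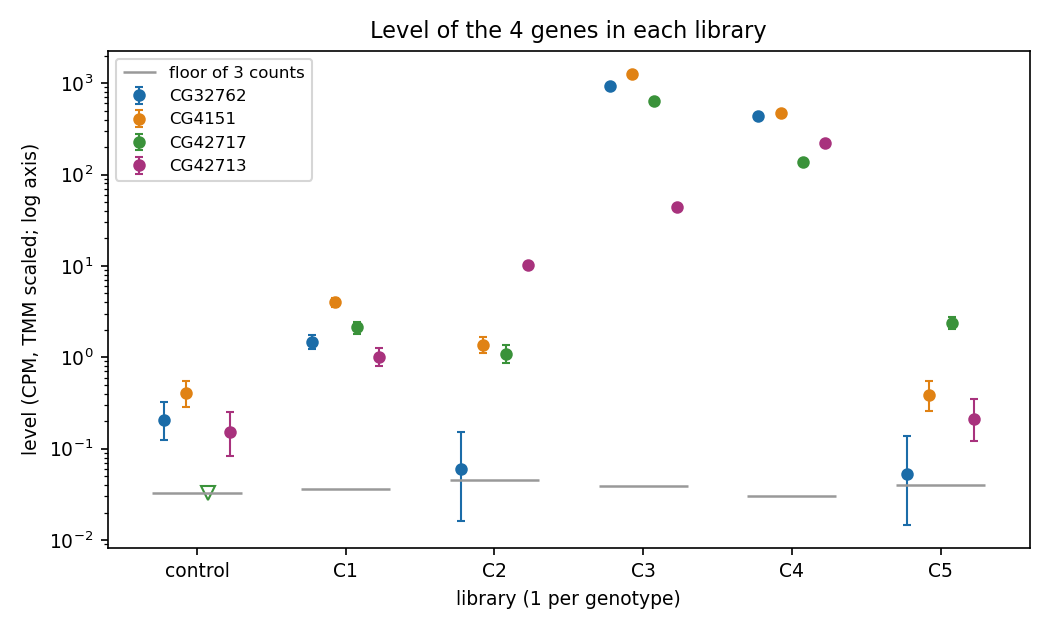
Level of CG32762, CG4151, CG42717 and CG42713 in each of the 6 libraries, in CPM on a log axis. Bars are exact 95% Poisson counting intervals, grey lines mark 3 counts, and the open triangle is CG42717 at 0 counts in the control, drawn at the floor. The points of C3 and C4 lie between 44.3 and 1273 CPM and those of the other libraries at 10.3 CPM or less.

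Compared per length, with the authors' RPKM summed over a gene's transcripts, the genes changed places between the 2 libraries. In C3, CG42717 (1510 RPKM) and CG4151 (1471 RPKM) stood highest, then CG32762 (989 RPKM) and, far below, CG42713 (90.4 RPKM). In C4 the order was CG4151 (669 RPKM), CG32762 (566 RPKM), CG42713 (558 RPKM) and CG42717 (394 RPKM). Among 16196 genes ordered by RPKM, CG42717 ranked 81st in C3 and 218th in C4, CG4151 87th and 163rd, CG32762 139th and 175th, and CG42713 884th and 177th. In the control the 4 ranked between 12149th and 15360th. Together they held 0.289% of all counts on genes in C3, 0.152% in C4 and at most 0.00114% in any other library.

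In C3 and C4 most counts of each gene were assigned to 1 transcript. CG4151 has a longer annotated transcript of 1307 bases that starts upstream and ends downstream of the main one of 758 bases. It took 0.239% of the counts of the gene in C3 and 0.137% in C4, and none elsewhere. CG42713 has a longer transcript of 674 bases with an extended 3' end, which took 3.47% in C3 and 0.928% in C4, while the transcript of 424 bases took 96.5% and 99.1%. In the control the longer one took 19.4% of 14 counts. The transcripts of CG32762 (822 and 854 bases) differ only at the 5' end, and the longer one took 13.3% of the counts in C3 and 13.4% in C4. It also took 13.3% in the control, C1, C2 and C5, where a few to 122 counts were shared out. The sources used here do not say how the counting program divided such shared reads. CG42717 has 1 annotated transcript, of 373 bases.

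In the libraries that did not enter the choice, the 4 genes differed from the control by less. These comparisons share the control library with C3 and C4, and its low values took part in the choice of the genes, so the counts that follow are given beside the background without a reading. In C1 all 4 genes were called higher, where 5.10% of 11599 genes were called higher and 18.0% lower. The folds were 7.13 for CG32762 (log2 interval 2.13 to 3.61), 9.99 for CG4151 (2.83 to 3.85) and 6.66 for CG42713 (1.91 to 3.67). For CG42717 the fold against the floor was 65.1 (lower log2 limit 5.71). In C2, 3 of the 4 were called higher and CG32762 lower, where 8.94% of genes were higher and 20.0% lower. CG42713 was 67.6-fold higher there (log2 interval 5.32 to 6.96) and CG4151 3.43-fold higher (1.21 to 2.37). Against the floor CG42717 was 33.5-fold higher (lower log2 limit 4.73). CG32762 had 4 counts in C2 against 19 in the control, a log2 ratio of -1.79 (interval -3.80 to -0.20).

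In C5, CG42717 was 72.8-fold higher against the floor (lower log2 limit 5.87). CG32762 was lower there with 4 counts (log2 ratio -1.95, interval -3.97 to -0.36). Of all genes 4.83% were called higher and 18.6% lower in C5. CG4151 and CG42713 in C5 were not called. In C3 and C4, where all 4 were higher by the rule of choice, 6.02% of genes were called higher and 21.8% lower in C3, and 8.97% higher and 3.16% lower in C4. All 4 passed the minimum mean of 1 CPM. CG32762 passed it through C3 and C4 alone, since its mean over the other 4 libraries was 0.447 CPM, against 1.54 CPM for CG4151, 1.40 CPM for CG42717 and 2.91 CPM for CG42713.

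C4 and C3 differed from each other in all 4 genes, in opposite directions. CG42717 was lower in C4 by a log2 ratio of -2.22 (interval -2.25 to -2.20, 4.67-fold), CG4151 by -1.42 (-1.44 to -1.40, 2.68-fold) and CG32762 by -1.09 (-1.10 to -1.07, 2.12-fold). CG42713 was higher in C4 by 2.33 (2.28 to 2.38, 5.03-fold). Of all 11599 genes, 8.09% were called lower and 24.3% higher in C4 than in C3. The call on CG32762 ended with plain CPM (log2 ratio -0.83) and with the authors' RPKM (-0.81), where the difference stayed below 2-fold.

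The neighbours CG32762 and CG4151 did not keep 1 ratio of counts. CG32762 held 42.3% of the counts of the pair in C3 (exact 95% binomial interval 42.0 to 42.5) and 48.0% in C4 (47.7 to 48.3). In libraries with few counts it held 33.9% in the control (21.8 to 47.8, of 56 counts), 26.8% in C1 (22.8 to 31.1, of 455 counts), 4.17% in C2 (1.15 to 10.3, of 96 counts) and 12.1% in C5 (3.40 to 28.2, of 33 counts). The shares in C1, C2 and C5 thus lay below those in C3 and C4 beyond counting error, while the interval of the control overlapped those of both.

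The neighbouring genes in the tables all had smaller ratios to the control in C3 and C4 than the member beside them. The members were chosen for high levels in C3 and C4, so nothing is read from this. Taking the 3 nearest annotated genes on each side of each, there were 18 distinct neighbours besides the members, 16 of them with transcripts in the tables and 6 at 1 CPM or more on average. Of these 6, CG34398 beside CG42713 was called higher in C3 (83.3 CPM in the control, 171 in C3 and 105 in C4) and CG9483 in C4 (6.49, 5.10 and 13.2 CPM in the same order). The largest log2 ratio to the control among the 6 was 1.03 in C3 and 1.02 in C4. The call on CG34398 ended with plain CPM (0.90). Notum, which encodes an extracellular Wnt inhibitor, ends 9 bases from the end of CG42717 on the opposite strand. Its CPM values were 4.27 (control), 4.75 (C1), 3.65 (C2), 4.88 (C3), 5.53 (C4) and 4.60 (C5), and no comparison with the control was called. SPR, the sex peptide receptor gene near the X-linked pair, stood at 3.27 CPM in the control, 3.16 in C3 and 1.57 in C4, where it was called lower, though not with plain CPM (log2 ratio -0.93).

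CG42716, 587 bases from CG42717 on the other strand and transcribed away from it, was below the minimum level. Its counts were 1 (control), 49 (C1), 34 (C2), 87 (C3), 16 (C4) and 66 (C5). With the control set to 3 counts it was called higher in all 5 libraries, with a log2 ratio of 5.14 in C3 and 2.32 in C4. Like CG42717 it had its lowest count in the control and its highest in C3. Unlike CG42717 it was lower in C4 than in C1, C2 or C5. Beside the X-linked pair, the long noncoding RNA gene lncRNA:CR45519, 3726 bases past CG4151, had 7 counts (control), 19 (C3), 10 (C4) and 0 in C1, C2 and C5, and was called higher in C3 (log2 ratio 1.72). The gene after CG42716, CG42538, had 13 counts in C3, 1 in C4 and 0 elsewhere, and was called higher in C3 alone. On the other side of CG42717, lncRNA:CR45998 had 5 counts in C3 and 0 in the control and C4. It too was called higher in C3 (log2 ratio 1.01). The shares over all genes cover genes at 1 CPM or more, so nothing is read from these calls.

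**Figure D2:**
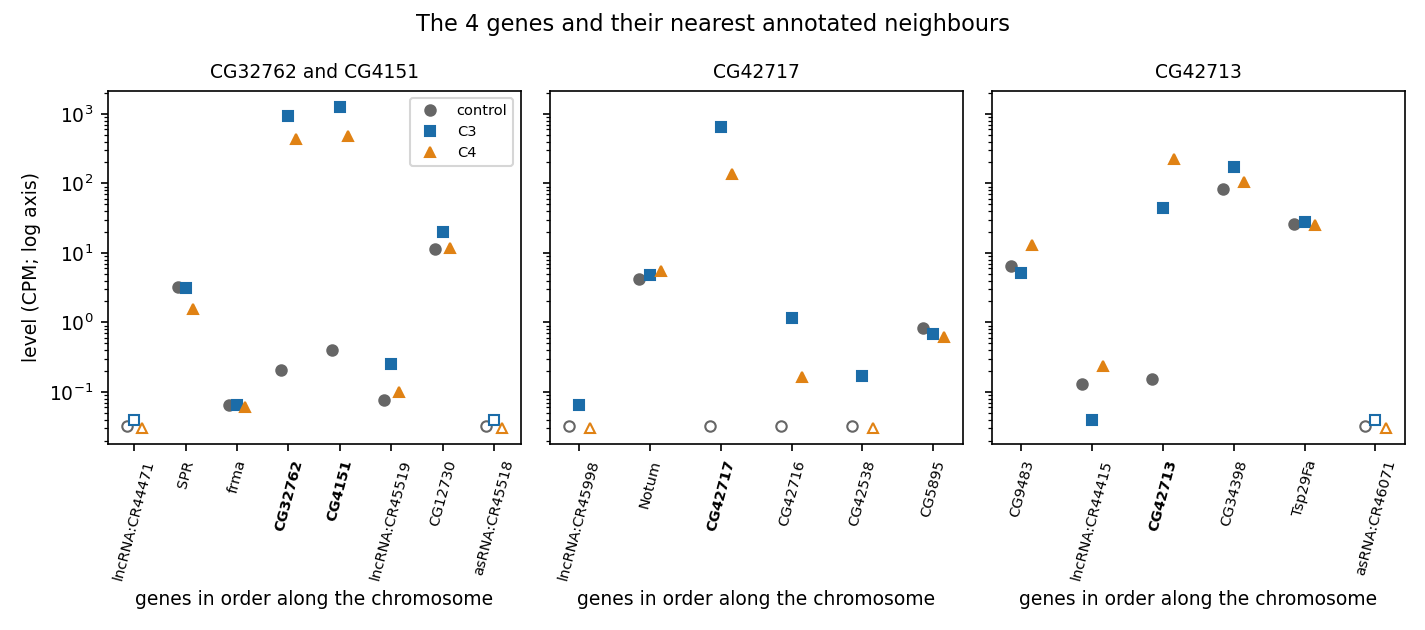
Level in the control, C3 and C4 of the 4 genes (bold) and of the nearest annotated genes with transcripts in the tables, in their order along the chromosome, in CPM on a log axis. Open symbols are libraries with fewer than 3 counts, drawn at the floor. CG32762, CG4151, CG42717 and CG42713 stand at 44.3 CPM or more in C3 and C4, while Notum next to CG42717 stays between 4.27 and 5.53 CPM.

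The pattern by which the genes were picked was rare among all genes. At least 64-fold above the control were 26 genes in C3 and 19 in C4, and 17 in both. The 17 comprised the 4 genes, 8 Eig71E genes, 3 further genes known by a CG number alone (CG45081, CG33998 and CG43082), the methuselah-like receptor gene mthl8, and sordd2. By their log2 ratio to the control among the 11599 genes that averaged 1 CPM or more, CG42717, CG32762 and CG4151 ranked 1st, 2nd and 3rd in C3 and 2nd, 5th and 8th in C4, and CG42713 ranked 12th and 6th. By the smaller of the 2 folds, the last gene inside the limit was Eig71Eg, 66.0-fold in C3 and 193-fold in C4. The first outside it was the antibacterial peptide gene Def, 45.3-fold and 56.8-fold. Genes with a CG number alone made up 41.2% of the 17 and 39.0% of all 11599 genes.

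CG45081 (3L, 19266061 to 19266838) had CPM values of 0.489 (control), 1.99 (C1), 0.404 (C2), 419 (C3), 388 (C4) and 0.480 (C5). As for CG32762, C1 was the highest of its 4 low libraries, but C4 was nearly as high as C3. CG43082 (3L, 15661867 to 15662279) directly follows Eig71Ek at the end of the cluster, and stood at 0.0434 CPM in the control, 18.2 in C3 and 4.07 in C4. CG33998 (2R, 18738492 to 18739143) had 0.0217 CPM (control), 7.73 CPM (C3) and 43.8 CPM (C4). Of the 17 genes, 15 had at most 200 codons, and the median was 100. Among all measured protein-coding genes 17.8% had at most 200 codons. The 17 include 8 genes of the single Eig71E cluster and the 4 chosen genes, so nothing is read from their length.

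**Figure D3:**
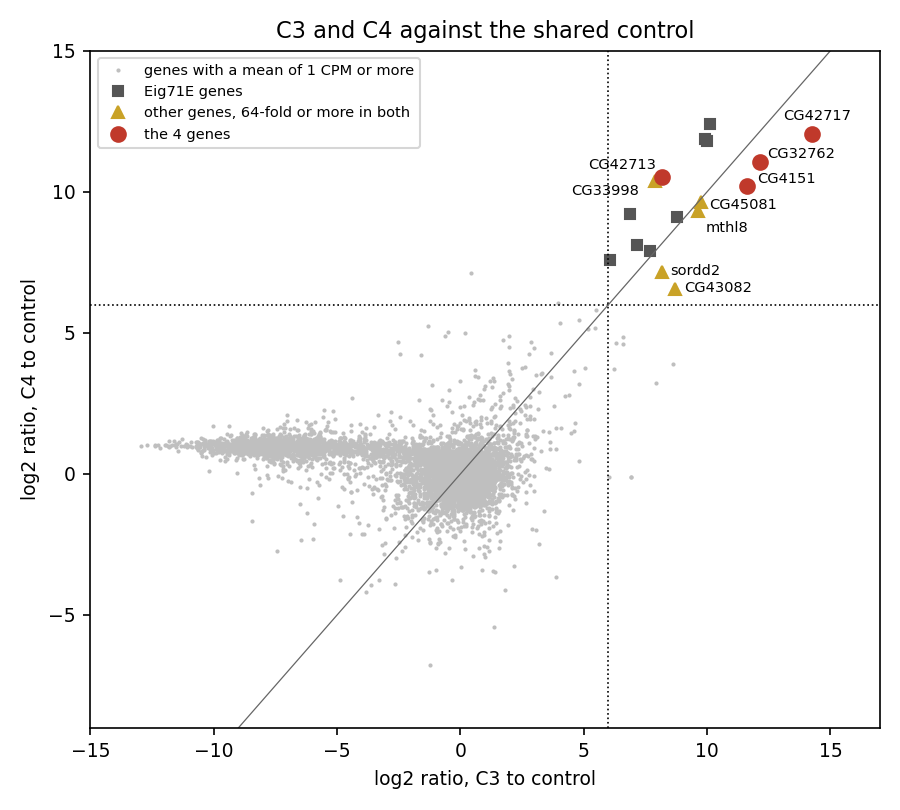
Log2 ratio to the control in C3 (x axis) and in C4 (y axis) for the 11599 genes that averaged 1 CPM or more. Dotted lines mark 64-fold, the solid line marks equal ratios, and both axes share the control library. The 17 genes beyond 64-fold in both include the 4 genes in red. Of these 4, CG42713 lies above the solid line, as do all Eig71E genes among the 17, and the other 3 lie below it.

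Among the 17 genes C4 and C3 divided the members. The 7 genes higher in C4 than in C3 were CG33998, Eig71Eh, CG42713, Eig71Ef, Eig71Ed, Eig71Ec and Eig71Eg, and the 5 lower ones were CG42717, CG43082, CG4151, CG32762 and sordd2. Of all 11599 genes, 24.3% were called higher and 8.09% lower in C4 than in C3. CG42713, with a log2 ratio of C4 to C3 of 2.33, stood next to Eig71Eh (2.34, interval 2.16 to 2.53) and Eig71Ef (2.28, interval 2.22 to 2.34). CG42717, at -2.22, stood next to CG43082 (-2.16, interval -2.33 to -2.00). No Eig71E gene among the 17 was lower in C4 than in C3, and their log2 ratios ran from 0.22 for Eig71Ea to 2.34 for Eig71Eh. With plain CPM 3 genes instead of 5 were called lower and 8 instead of 7 higher.

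**Figure D4:**
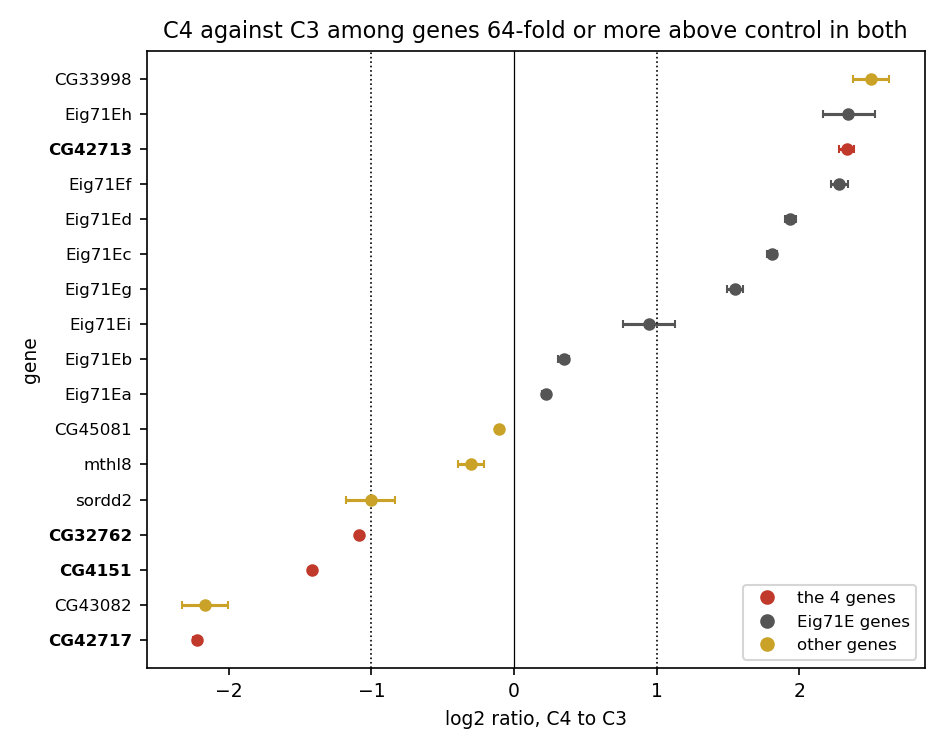
Log2 ratio of C4 to C3 for the 17 genes at least 64-fold above the control in both libraries, with exact 95% binomial intervals that cover counting error only. Dotted lines mark 2-fold. CG42717, CG4151 and CG32762 (bold) lie on the negative side, from -2.22 to -1.09, and CG42713 lies at 2.33 among Eig71E genes.

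The levels of the 4 genes over the 6 libraries were then set beside those of all genes, as Pearson's r of log2(CPM + 0.5). This is a description over 6 libraries that all genes share, in which C3 and C4 stand far from the rest for the members. CG32762 and CG4151 had r = 0.994 with each other, CG42717 had 0.969 and 0.974 with them, and CG42713 had 0.850, 0.875 and 0.826 with CG32762, CG4151 and CG42717. The choice of the genes used C3 and C4, so it set much of these values.

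The 6 genes most like CG32762 were CG45081 (0.998), Ero1L (0.997), CG9689 (0.996), the furry gene fry with 0.996, CG4151 (0.994) and Eig71Ea (0.988). Ero1L, whose enzyme helps to form disulfide bonds of secreted proteins, stood at 31.0 CPM in the control, 89.0 in C3 and 80.4 in C4. For CG4151 they were CG32762 (0.994), CG9689 (0.994), fry with 0.993, CG45081 (0.991), Ero1L (0.986) and CG5835 (0.985). CG5835 stood at 12.0 CPM in the control, 84.9 in C3 and 79.0 in C4.

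For CG42717 the closest was Dph1 (0.993), a gene of diphthamide synthesis at 24.8 CPM in the control, 112 in C3 and 72.0 in C4. The next were verm, a chitin deacetylase gene (0.982), Nxf3 (0.979), l(2)SH0834 (0.979), TfIIEalpha (0.978) and fry with 0.975. The closest to CG42713 were CG10516 (0.983), ash2 (0.975), Pkcdelta (0.974), Pih1D1 (0.965), fsd (0.961) and CG11367 (0.961). Pkcdelta, a protein kinase gene, had CPM values of 4.67 (control), 9.09 (C1), 14.7 (C2), 21.9 (C3), 30.2 (C4) and 7.41 (C5), in the same order of libraries as CG42713. Most of these genes differed from the control by much less than the members, ash2 for instance by 1.18-fold in C4. On CPM without logarithms the choice changed, with 1 of the 6 kept for CG32762, 1 for CG4151 and none for CG42717 and CG42713. The closest to CG42717 was then CG43082 (0.9999) and to CG42713 Eig71Eh (0.999).

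Glue RNA was low in C3 and near the control level in C4. Of 10 measured glue genes 8 were called lower in C3 and none higher, with a median log2 ratio of -4.86, against -0.01 over all genes. In C4 none was lower and ng2 and ng3 were higher, with a median of -0.05 against 0.06 over all genes. In the control ng1 stood below the floor (0.0109 CPM) and ng2 near it (0.0543 CPM), so neither could readily be called lower. Both passed the minimum mean of 1 CPM through C2 alone, at 9.46 and 14.1 CPM. The level of ng2 in C4 was 0.314 CPM. The shares over all genes were 6.02% higher and 21.8% lower in C3, and 8.97% higher and 3.16% lower in C4. Sgs3, which encodes a main glue protein, had 5560 CPM (control), 125 CPM (C3) and 5157 CPM (C4), and summed glue RNA was 19015, 802 and 19522 CPM in the same order. Of the 9 measured Eig71E genes, by which the 4 genes were chosen, 8 were called higher and Eig71Ee lower in both, with median log2 ratios of 7.68 in C3 and 9.12 in C4. Eig71Eb, Eig71Ec, Eig71Ed, Eig71Ef, Eig71Eh and Eig71Ei passed the minimum mean of 1 CPM through C3 and C4 alone, with 0.599 CPM or less in each other library. The minimum thus favoured their higher calls, and nothing is read from the count or the medians. Eig71Ee had CPM values of 5473 (control), 2312 (C1), 2787 (C2), 88.6 (C3), 1595 (C4) and 3999 (C5). It made up nearly all Eig71E RNA of the control, so the RNA summed over the cluster was lower in both, at 5476 CPM (control), 788 CPM (C3) and 3076 CPM (C4). Of the other 2 Eig71E genes in the tables, neither reached 1 CPM on average: Eig71Ek stood at 0 CPM in the control, 0.211 in C3 and 0.335 in C4, and Eig71Ej at 0.0217, 0.0790 and 0.0608 CPM.

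For the next 3 lists the shares over all genes are those given above, 6.02% higher and 21.8% lower in C3, and 8.97% higher and 3.16% lower in C4, and nothing particular to a list is read from its counts. Of 8 transcription factor genes of the salivary gland, 1 was higher and 1 lower in C3, and none was higher and 1 lower in C4, with median log2 ratios of 0.12 and -0.41. CrebA, a regulator of secretory genes, stood at 74.0 CPM in the control, 164 in C3 and 58.4 in C4, and was higher in C3. sage, a salivary gland bHLH factor gene, stood at 70.2, 20.7 and 50.9 CPM and was lower in C3. fkh, the fork head gene that keeps glue genes active, stood at 55.4, 60.9 and 39.1 CPM and was called in neither. eyg was the gene lower in C4, at 8.16 CPM against 17.6 CPM in the control, a call that ended with plain CPM (log2 ratio -0.99).

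The ecdysone receptor and response list was mixed. Of 16 measured genes 4 were higher and 2 lower in C3 (median log2 ratio 0.02), and 2 were higher and 4 lower in C4 (-0.31). Eip93F and ImpL1 were higher in both. Eip93F, a transcription factor gene tied to the death of larval tissues, had CPM values of 18.7 (control), 59.0 (C1), 8.11 (C2), 79.9 (C3), 42.4 (C4) and 13.9 (C5). It was higher in C1 too, and lower in C2. ImpL1 had CPM values of 0.890 (control), 1.01 (C1), 0.554 (C2), 5.44 (C3), 12.2 (C4) and 0.413 (C5), so that C3 and C4 were its high libraries. EcR, the receptor gene, was lower in C3 (99.6 to 22.6 CPM) and stood at 97.6 CPM in C4. Of the early factors, br stood at 1714 CPM (control), 1366 CPM (C3) and 1078 CPM (C4) and was called in neither. Eip74EF stood at 481, 401 and 158 CPM in the same order and was lower in C4. Eip75B, at 404, 128 and 291 CPM, was lower in C3.

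Hr3, which encodes a nuclear receptor, had 90.9 CPM (control), 250 CPM (C3) and 148 CPM (C4), and was called higher in C3. Eip78C was lower in C4 at 71.5 CPM, against 321 in the control and 620 in C3. Of 5 measured genes of ecdysteroid synthesis and breakdown, none was higher and 2 were lower in C3, and 1 was higher and 2 were lower in C4. shd and Cyp18a1 were the lower ones in both. shd, whose enzyme makes the active hormone, stood at 66.8 CPM in the control, 7.52 in C3 and 27.6 in C4. Cyp18a1, whose enzyme inactivates it, stood at 13.2, 2.12 and 5.02 CPM.

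C3 and C4 differed in the RNA of several tissues. The testis list was near 0 in C3 (6.20 CPM summed) and present in C4 (2267 CPM) and in the control (1068 CPM). All 5 muscle genes and all 4 cuticle genes on the lists were lower in C3 than in the control, and none was called in C4. Of 6 fat body genes 1 was higher and 1 lower in C3, and 2 were lower in C4. Of 5 midgut genes 3 were higher and 1 lower in C3, and 1 was higher in C4. Of 5 haemocyte genes 3 were lower in C3 and 1 in C4. Of 3 Malpighian tubule genes 1 was higher in C3 and 1 in C4. Beside these counts, 6.02% of all 11599 genes were called higher and 21.8% lower in C3, and 8.97% higher and 3.16% lower in C4. The part of differences in tissue content, stage or sex of the larvae in the levels of the 4 genes was not tested, and with 1 library per genotype these cannot be told apart from the genotype.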

How the data were processed

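Total RNA of whole larvae was sequenced from stranded TruSeq libraries as paired ends, per the labels' protocols. Per the submitters' processing notes, bcl2fastq, TopHat, Partek and the build dm6 were used. Nothing in the sources used here gives their roles or whether the counting used strand. The authors deposited for each of the 6 libraries expected counts of 34966 RefSeq transcripts, unscaled for depth, and RPKM values (reads per 1000 bases and 1000000 reads). The RPKM values implied library totals 10.5% to 13.8% above the column sums. RPKM served only to compare levels between genes and as an alternative.

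Transcripts were matched to genes by accession (33027, 94.5%) with the RefSeq table of the same assembly as dm6, and expected counts were summed per gene and rounded. Strands and exons are from the Ensembl BDGP6 annotation of that assembly. The 6 libraries held 75070322 to 86894127 counts on genes, and TMM factors came from edgeR 4.0.16 in R 4.3.3. The 11599 genes that averaged 1 CPM or more were compared by the rule given in the report, which was tested on data simulated with counting noise only. No test over samples was possible with 1 library per genotype. The members and lists were chosen with earlier results of these data known. Genes named are the members, their 3 neighbours on each side, the 6 genes with the highest r per member, the genes at least 64-fold higher in both C3 and C4 and members of the lists. CG42538 and CG42716 are such neighbours, while Def was named as the first gene outside the limit. Alternatives were DESeq2 1.42.0 size factors, plain CPM, other minimum levels, a floor of 1 count, RPKM of the main transcript, another pseudocount and linear CPM. ng4, Eip71CD and phm were not analysed here.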

Additional observations from a re-analysis of the deposited data

How the results depend on the processing

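Of 87 recomputed log2 ratios of the 4 genes, 85 kept their direction and their side of the 2-fold limit. The other 2 were CG32762 in C4 against C3, -0.83 with plain CPM and -0.81 with RPKM. RPKM gave no ratio for CG42717 against the control at 0. Plain CPM moved all log2 ratios to the control by -0.20 (C1), -0.30 (C2), -0.13 (C3), 0.12 (C4) and -0.27 (C5). Counts of genes called moved by over 1.5 times as follows. With no minimum level they were 3252 lower in C1, 1049 higher in C3, 1739 higher and 562 lower in C4, 3331 lower in C5 and 4308 higher in C4 than in C3. With a minimum of 5 CPM they were 1165 lower (C1), 1354 lower (C2), 1480 lower (C3) and 1211 lower (C5), 597 higher in C4, and 1701 higher in C4 than in C3. With plain CPM they were 1580 higher in C4, 344 higher in C5 and 598 lower in C4 than in C3, and of the 17 genes far above the control in both, 3 were lower in C4 than in C3. That last alternative was added after seeing the data. Of the 6 genes most like each member, linear CPM kept 1 for CG32762, 1 for CG4151, 0 for CG42717 and 0 for CG42713. A pseudocount of 0.05 kept 3 for CG32762 and 0 for CG42717, and no minimum level kept 3 for CG42717. The cause of these changes was not tested. Of 352 recomputed counts for the lists (the 7 tissue lists in C3 and C4 against the control alone), 335 stayed within 1.5 times. Of 168 recomputed calls of listed and neighbouring genes in C3 and C4, added after seeing the data, 165 held and 3 ended with plain CPM (CG34398, SPR and eyg). No paired analysis was possible because each genotype has 1 library. Depth limits CG32762 in C2 and C5, with 4 counts each, and CG42717 in the control, with 0.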

Other observations

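CG42717 and its neighbour CG42716 were both lowest in the control, at 0 and 1 counts, and were both read in C1, C2 and C5, at 176 and 49, 73 and 34, and 178 and 66 counts. Of the 17 genes at least 64-fold above the control in C3 and C4, 9 were called higher and none lower in C1, 6 were called higher and 2 lower in C2, and 6 higher and 2 lower in C5. Over all 11599 genes the shares called higher and lower were 5.10% and 18.0% (C1), 8.94% and 20.0% (C2) and 4.83% and 18.6% (C5). The 17 were selected for values far above the shared control, so nothing is read from these counts. sordd2 had 0 CPM in the control and 4.67 CPM or more in each transgenic library, with its highest level in C2 (13.1 CPM) and not in C3 (9.39 CPM) or C4 (4.67 CPM). mthl8 had 0 counts in the control and in C1, and had CPM values of 9.40 (C2), 25.7 (C3), 20.8 (C4) and 0.133 (C5).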
